A study of Mus musculus with 2 samples.

Results

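Classical monocytes were examined among CD45low CD11b+ cells sorted from the brains of adult mice, as barcodes holding UMIs (unique molecular identifiers, each a counted RNA molecule) of both Ly6c2 and Ccr2 and few UMIs of other lineages. The members were chosen by measured values: at least 2 UMIs of Ly6c2 and 1 of Ccr2, S100a8 and S100a9 together under 3% of UMIs, Mpo, Elane, Prtn3 and Ctsg under 0.2%, 6 microglia genes (P2ry12, Gpr34, Tmem119, Siglech, Fcrls and Olfml3) under 0.5%, H2-Aa, H2-Ab1, H2-Eb1 and Cd74 under 1%, and fewer than 3 of 7 cycling genes (Mki67, Top2a, Cenpf, Birc5, Ube2c, Pbk and Cdk1) detected. Barcodes were kept from 200 genes upward if mitochondrial genes held no more than 10% of UMIs. The members numbered 867 of 14849 kept barcodes, with 28 of 7032 in Disc1 WT/WT and 839 of 7817 in Disc1 LI/LI. Levels of these rule genes are therefore descriptions of the choice and not findings.

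The study compared Disc1 LI/LI mice, homozygous for a locus impairment allele of the actin scaffold gene Disc1 that is treated as equivalent to a knockout, with Disc1 WT/WT littermates. Each group was 6 male mice of 23 weeks, whose brains were pooled into 1 library, so the groups have no replicates. The allele is a germline one and is not limited to a cell type. Actinomycin D, an inhibitor of transcription, was present while the tissue of both groups was dissociated, and the sorted cells were labelled as microglia. With 1 library per genotype no test was possible: levels are given as CPM (UMIs of a gene per 1000000 UMIs of the summed cells) with 95% Poisson intervals, differences as log2 ratios with 95% Clopper-Pearson intervals and shares with exact binomial intervals. These intervals cover counting error only, and neither the spread between animals nor between sorts. Genotype cannot be told apart from anything else that differed between the sorts and libraries. The methods name both Chromium Chip B and Chip G, with kits of more than 1 version, and which of them each library was made with is not given in the sources used here.

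Classical monocytes are made in the bone marrow, leave it through the chemokine receptor CCR2, circulate briefly and enter tissues, where they can become macrophages or dendritic-like cells. Ly6C marks them in the mouse, and some lose it and become nonclassical monocytes, which patrol the vessel wall. Adult microglia arise from early embryonic progenitors and are largely maintained without monocytes.

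Reads were counted on the mm10 mouse genome. Ly6c2 (ENSMUSG00000022584), a surface antigen gene, lies at chr15:75108158-75111970 on the minus strand, and Ccr2 (ENSMUSG00000049103), the receptor for the chemokine CCL2, at chr9:124101950-124113557 on the plus strand. Ly6c1, a close copy of Ly6c2 that could share reads with it, held 1 UMI in the Disc1 WT/WT cells and 6 in the Disc1 LI/LI cells. Disc1 (ENSMUSG00000043051) lies at chr8:125054195-125261858 and held 1 UMI in the 28 Disc1 WT/WT cells and 0 in the 839 Disc1 LI/LI cells. That count is too low to check the genotype in these cells, and in microglia of the same libraries Disc1 was at 21.6 and 2.49 CPM. In the members, Xist was at 0 in both libraries and Ddx3y, on the Y chromosome, at 42.8 and 49.2 CPM.

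The rule removed cells step by step. In Disc1 WT/WT, 50 kept barcodes passed the Ly6c2 and Ccr2 limits, of which 44 were left after the neutrophil and progenitor granule limits, 41 after the microglia limit, 30 after the cycling limit and 28 after the MHC class II limit. In Disc1 LI/LI the corresponding numbers were 1371, 1127, 1120, 905 and 839. The final share was 0.398% of kept Disc1 WT/WT barcodes (0.265 to 0.575) and 10.7% of kept Disc1 LI/LI barcodes (10.1 to 11.4). The CD45low CD11b+ gate can set these shares, and they were not read as cell numbers in the brain. The same sort held 93 mature neutrophils and 4328 microglia in Disc1 WT/WT, and 3102 and 1185 in Disc1 LI/LI. Microglia were taken as barcodes with the 6 microglia genes at 1% of UMIs or more, and mature neutrophils as those with S100a8 and S100a9 at 10% or more and Csf3r or Cxcr2 detected.

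Depth per cell was similar in both libraries. The members held 210471 UMIs in Disc1 WT/WT against 5933549 in Disc1 LI/LI, with medians of 7076.5 and 6737 UMIs and of 2369 and 2070 genes per cell. After each cell was thinned to 1000 UMIs the medians were 619.5 and 575 genes. Among all barcodes, 12 occurred in both libraries, and 0 of them were members. The 28 Disc1 WT/WT cells are the limit of every comparison between genotypes.

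The cells just inside and just outside the Ly6c2 limit had like levels of some genes and not of others. In Disc1 LI/LI, the 69 members with exactly 2 Ly6c2 UMIs had 2822 CPM of Plac8 and 35441 CPM of Lyz2, the lysozyme gene of myeloid cells. The 73 cells left out with 1 Ly6c2 UMI had 3044 CPM of Plac8 and 36143 CPM of Lyz2. Vcan, which encodes the proteoglycan versican, was at 187 CPM inside and 77.8 CPM outside. At the Ccr2 limit, the 33 members with 1 Ccr2 UMI had 16999 CPM of Lyz2, and the 62 cells left out with 0 had 5939 CPM. In Disc1 WT/WT the 2 members with 1 Ccr2 UMI had 99.8 CPM of Lyz2 and 0 UMIs of Fn1 and Vcan, against 277 CPM of Lyz2 in microglia, so that these markers do not show them as monocytes.

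The marker genes that the rule did not use were found in both libraries. Plac8, a gene of Ly6C-high monocytes, was at 2352 CPM (2149 to 2569) in Disc1 WT/WT and 2777 CPM (2735 to 2820) in Disc1 LI/LI. Fn1, which encodes the matrix protein fibronectin, was at 1155 and 940 CPM, and Vcan at 290 and 130 CPM. Of the rule's own genes, Ly6c2 was at 1335 and 1618 CPM and Ccr2 at 1487 and 1033 CPM. Over the 22 genes of the classical monocyte list the sums were 52967 and 59094 CPM, against 735 and 1212 CPM in microglia of the same libraries.

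Some members held RNA of another lineage, and comparisons that rest on them are given with and without them. In Disc1 WT/WT 7 of 28 cells (25%) did: 5 with at least 5 of 12 T and NK cell genes and 3 with the 6 microglia genes at 0.2% of UMIs or more, 1 cell having both kinds. In Disc1 LI/LI 44 of 839 cells (5.24%) did: 16 with T and NK cell genes, 27 with microglia genes and 2 with immunoglobulin genes at 1% of UMIs or more. The T and NK cell list summed to 1364 and 119 CPM over all members, and to 0 and 5.82 CPM without these cells. The 2 Disc1 LI/LI cells with immunoglobulin RNA held 97.9% of all Igkc UMIs of the members, and in 1 of them immunoglobulin genes were 76.1% of UMIs. Whether such cells were doublets was not tested, and they are named here by the genes they held. Without them 21 and 795 cells were left, in which Lyz2 was at 34719 and 34457 CPM. Lyz2 UMIs were found in 89.3% of all Disc1 WT/WT members and in 100% of these 21, so the members without it were all among the cells left out here.

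**Figure D1:**
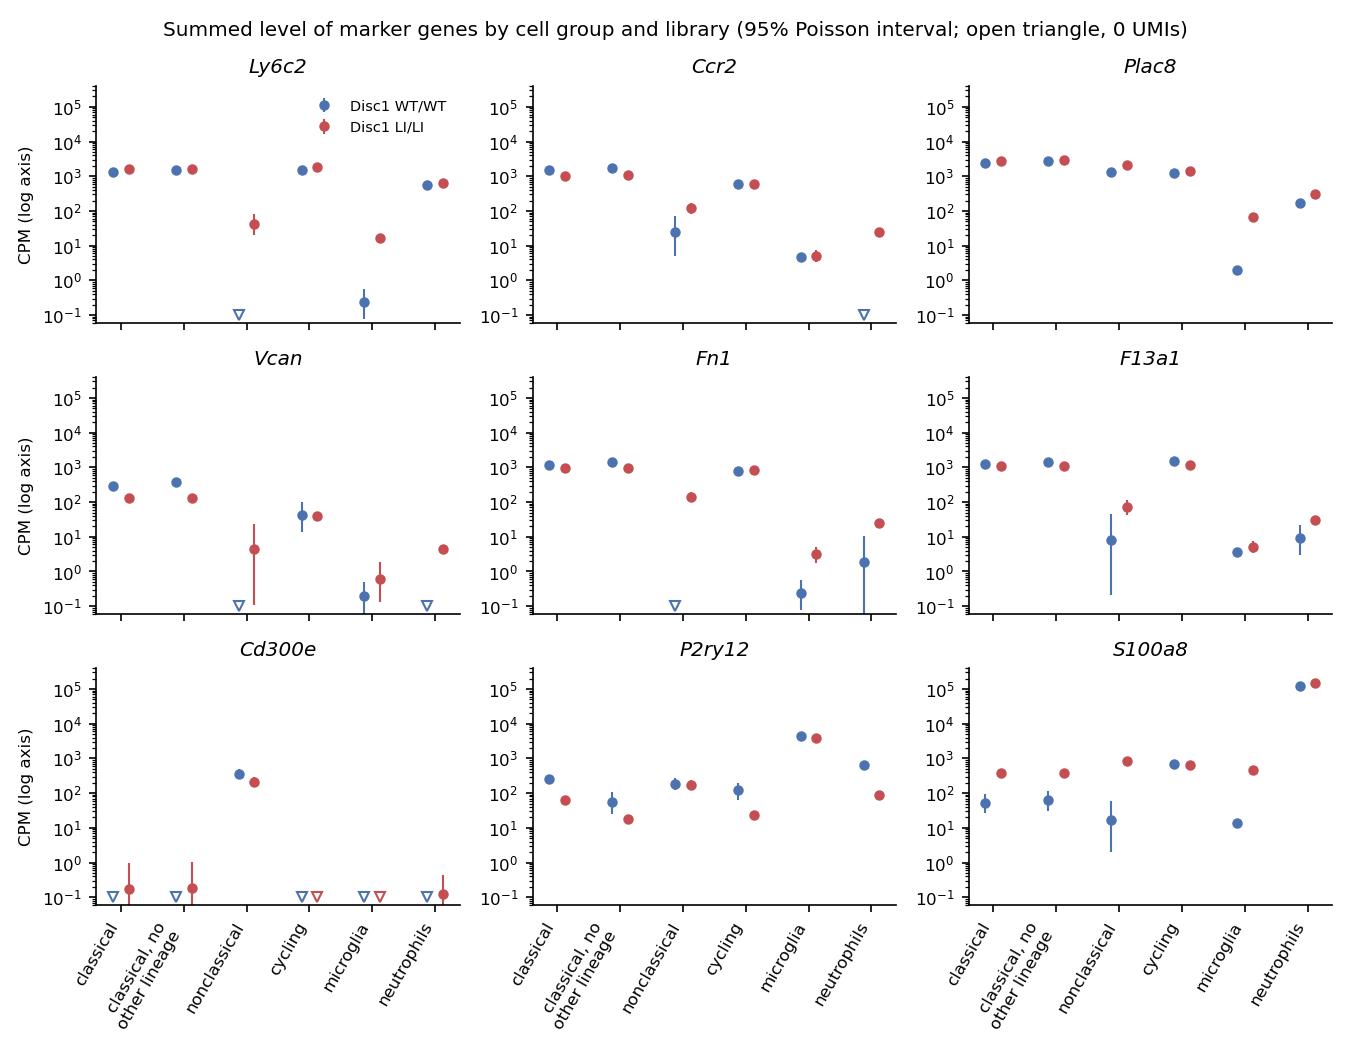
Summed level of marker genes in CPM (log axis) in the classical monocytes and the other cell groups of each library, with 95% Poisson intervals; open triangles at the bottom mark 0 UMIs. Ly6c2, Ccr2, Vcan, Fn1 and F13a1 sit far above nonclassical monocytes and microglia in both libraries, which the rule itself fixes for Ly6c2 and Ccr2, and S100a8 in Disc1 LI/LI classical monocytes (390 CPM) is below that of Disc1 LI/LI microglia (467 CPM).

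The classical monocytes held RNA of receptors and adhesion molecules used to enter tissue. All values in the next sentences leave out the cells with other-lineage RNA, and give Disc1 WT/WT first. Ccr1, a receptor for several inflammatory chemokines, was at 218 and 285 CPM, against 16.3 and 12.9 CPM in nonclassical monocytes. Cx3cr1, the fractalkine receptor, was at 243 and 103 CPM, against 474 and 439 CPM in nonclassical monocytes. Itga4, the integrin chain that binds VCAM-1, was at 518 and 229 CPM, and the intervals of the libraries did not overlap for it. The growth factor receptors Csf1r and Csf2ra were at 287 and 177 CPM and at 306 and 191 CPM, and Il3ra at 24.97 and 56.0 CPM.

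Among transcription factors, Cebpb was at 2566 and 3340 CPM, Spi1, which encodes PU.1, at 531 and 572 CPM, and Cebpd at 268 and 656 CPM. Of the sensing genes, Cd14, the co-receptor for lipopolysaccharide, was at 312 and 598 CPM and Clec4e at 93.6 and 138 CPM. Of the secreted proteins, the chemokine genes Ccl6 and Ccl9 were at 1704 and 1738 CPM and at 325 and 356 CPM. Il1b, the gene of interleukin-1 beta, was at 325 and 144 CPM and Osm, which encodes oncostatin M, at 119 and 164 CPM. F13a1, which encodes the clot-stabilizing factor XIII A chain, was at 1448 and 1103 CPM, and F10, coagulation factor X, at 56.2 and 175 CPM. F13a1 is also a marker of border macrophages. Of the other markers on that list, Mrc1, Cd163 and Pf4 were at 0 in Disc1 WT/WT and at 3.82, 0.727 and 1.09 CPM in Disc1 LI/LI. Ms4a7 was at 31.2 and 6.00 CPM, against 32.7 and 21.5 CPM in nonclassical monocytes.

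Compared with nonclassical monocytes of the same library (38 and 73 cells), the classical cells had more RNA of most classical list genes and less of most nonclassical list genes, also when the genes that set the groups were left out. Nonclassical monocytes were taken as cells with under 2 Ly6c2 UMIs and at least 3 of Ace, Treml4, Ear2, Adgre4, Cd300e, Spn, Eno3 and Pou2f2 detected, so these genes, Ly6c2 and Ccr2 follow from the choice of the groups. Of 2757 genes with at least 50 CPM in 1 of the groups in both libraries, 135 (4.9%) were at least 2-fold higher in classical monocytes in both libraries and 178 (6.46%) were at least 2-fold lower. Without the cells with other-lineage RNA the numbers were 149 and 215 of 2715. With the genes that set the groups left out, 13 of 19 classical monocyte genes compared were higher and 2 lower, and of 11 nonclassical genes 0 were higher and 8 lower. Without the cells with other-lineage RNA these were 15 and 2 of 20, and 0 and 7 of 11.

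The highest ratios to nonclassical monocytes included those of Ly6c2, Fn1, Ccl5, Vcan, F13a1, Thbs1, Slpi, Ccr2 and AI839979. F13a1 held 261 UMIs in classical and 1 in nonclassical monocytes of Disc1 WT/WT, and was at 1062 against 73.2 CPM in Disc1 LI/LI (log2 ratio 3.86, 3.18 to 4.64). Slpi, a secreted protease inhibitor, was at 285 against 0 CPM in Disc1 WT/WT, at least a log2 ratio of 3.54 with the 0 set at a floor of 3 counts, and at 502 against 60.3 CPM in Disc1 LI/LI (3.06, 2.31 to 3.93). Ccl5 belonged to the cells with other-lineage RNA: without them it was at 0 CPM in Disc1 WT/WT against 5.27 CPM in Disc1 LI/LI. Without those cells Ly6c2, Fn1, Vcan, F13a1, Thbs1 and Ccr2 had log2 ratios of 2.53 or more in both libraries, with a 0 set at the floor. Slpi and AI839979 were not recomputed without them.

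The lowest ratios were those of Cd300e, Fabp4, Cd36, Pparg, Ace, Eno3, Treml4, Hes1, Dusp16 and Bcl2a1d, of which Cd300e, Ace, Eno3 and Treml4 had been used to choose the nonclassical cells. Fabp4 and Cd36, genes of fatty acid binding and uptake, and Pparg, a nuclear receptor that controls both, were at 0 UMIs in the Disc1 WT/WT classical monocytes. In nonclassical monocytes of the same library they were at 695, 507 and 139 CPM. In Disc1 LI/LI they were at 2.70, 1.01 and 0.674 CPM in classical monocytes, against 603, 215 and 112 CPM. Hes1, a transcriptional repressor downstream of Notch, was at 0 against 278 CPM in Disc1 WT/WT and at 3.54 against 103 CPM in Disc1 LI/LI.

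Within the Disc1 LI/LI monocytes without other-lineage RNA, variation between cells was described by splitting them on Fos, on Ifit3, on Ly6c2 and on cycling genes. They share 1 library, cells are not replicates, and the grouping gene of each split is not itself a result. The share of a cell's UMIs in 18 immediate early genes ran from 0.150% at the 5th percentile through a median of 0.799% to 1.99% at the 95th, over the 839 cells. The corresponding values for 22 interferon-response genes were 0.492%, 1.12% and 2.38%, with a highest cell at 5.29%. The splits by Fos and by Ifit3 were chosen after these spreads were seen.

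Monocytes with more Fos, a gene induced within minutes of stimulation, also held more RNA of inflammatory cytokines. The cells of at least 2000 UMIs were put in 3 equal groups by their share of Fos UMIs (263, 263 and 262 cells, with median depths of 6497, 6726 and 6842.5 UMIs). Of 2610 genes, 49 (1.88%) were at least 2-fold higher in the high group than in the low group and 6 (0.23%) lower. Of 14 immediate early genes compared beside Fos itself, 11 were higher and 2 lower, and of 9 cytokine and chemokine genes 6 were higher (Ccl2, Ccl3, Ccl4, Cxcl2, Il1b and Osm).

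Ccl3, a chemokine gene for leukocyte recruitment, was at 46.9, 357 and 618 CPM in the low, middle and high groups, a log2 ratio of 3.72 (3.40 to 4.06) between the outer groups. Osm was at 24.0, 154 and 308 CPM, Il1b at 32.9, 108 and 286 CPM, and Cd14 at 134, 591 and 1052 CPM. Dusp1, which encodes a phosphatase that shuts off MAP kinases, was at 119, 847 and 1601 CPM. Each of these genes was higher in the middle than in the low group and higher again in the high group. The 2 immediate early list genes that went the other way were the heat shock genes Hspa1a, at 204, 188 and 34.7 CPM, and Hspa1b, at 155, 108 and 30.4 CPM. Of the classical monocyte list, Fn1 was nearly level at 976, 1017 and 945 CPM, while Thbs1, which encodes thrombospondin-1, was at 59.2, 224 and 378 CPM (log2 ratio 2.68, 2.38 to 2.98). Actinomycin D was present in dissociation, and how much of this variation preceded dissociation was not tested.

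**Figure D2:**
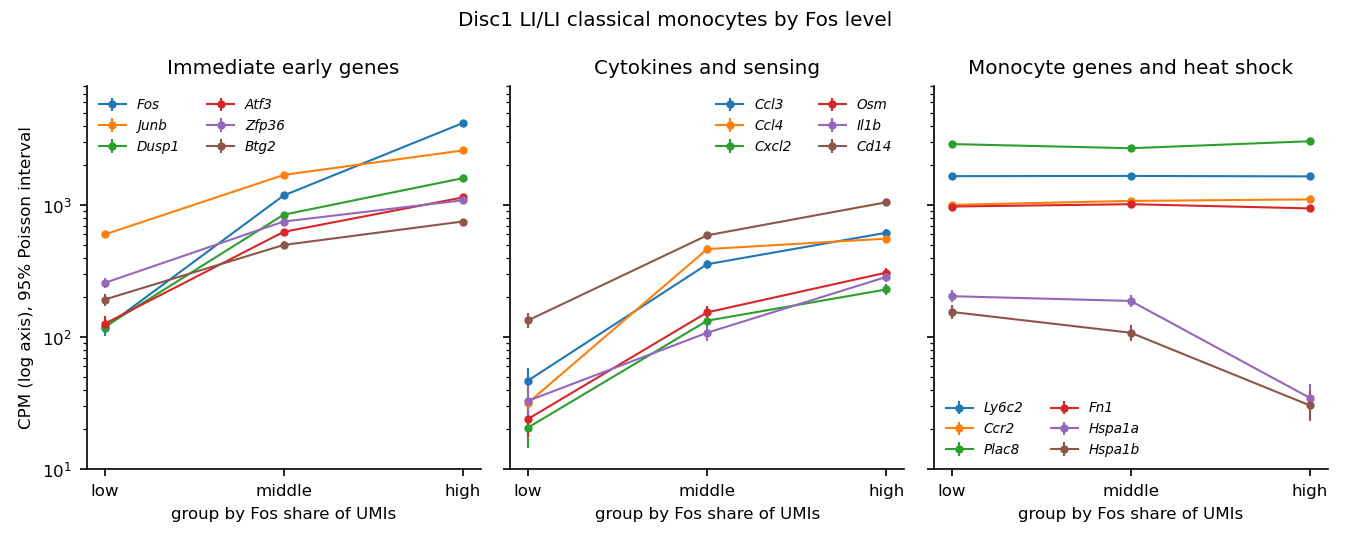
Level in CPM (log axis, 95% Poisson intervals) of immediate early genes, cytokine and sensing genes, and monocyte and heat shock genes in the 3 groups of Disc1 LI/LI classical monocytes by Fos share. Immediate early and cytokine genes step up from the low to the high group (Ccl3 from 46.9 to 618 CPM), Hspa1a and Hspa1b step down, and Ly6c2, Ccr2, Plac8 and Fn1 are nearly level.

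Some monocytes held more RNA of interferon-response genes. Interferons act through transcription factors that bind interferon-stimulated response elements before genes such as Ifit3, Isg15 and Rsad2. Ifit3 UMIs were found in 74 of 795 Disc1 LI/LI cells (9.31%), against 2.03% of microglia of that library, at median depths of 6702 and 3754 UMIs. In Disc1 WT/WT all 15 Ifit3 UMIs came from 1 of 21 cells (4.76%). The 250 bases before the start of 3 of these genes are shown as examples of windows that hold the element. They were chosen with their matches known, and Ifit3 is also the gene of the split. Capitals mark each match to the letters GAAANNGAAA or their reverse complement TTTCNNTTTC. The sequences are RefSeq windows of the build GRCm38.p6, written 5′ to 3′ on the gene's strand.
Ifit3, chr19:34583279-34583528, plus strand: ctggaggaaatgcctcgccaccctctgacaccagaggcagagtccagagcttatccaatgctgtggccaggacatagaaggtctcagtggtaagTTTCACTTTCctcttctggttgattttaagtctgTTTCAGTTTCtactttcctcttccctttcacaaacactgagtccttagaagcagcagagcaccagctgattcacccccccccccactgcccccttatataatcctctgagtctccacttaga
Isg15, chr4:156200819-156201068, minus strand: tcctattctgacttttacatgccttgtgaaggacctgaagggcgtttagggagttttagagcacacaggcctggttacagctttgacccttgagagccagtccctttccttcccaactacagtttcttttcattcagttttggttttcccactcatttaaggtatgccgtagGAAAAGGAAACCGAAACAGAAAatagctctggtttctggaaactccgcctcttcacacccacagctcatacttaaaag
Rsad2, chr12:26456453-26456702, minus strand: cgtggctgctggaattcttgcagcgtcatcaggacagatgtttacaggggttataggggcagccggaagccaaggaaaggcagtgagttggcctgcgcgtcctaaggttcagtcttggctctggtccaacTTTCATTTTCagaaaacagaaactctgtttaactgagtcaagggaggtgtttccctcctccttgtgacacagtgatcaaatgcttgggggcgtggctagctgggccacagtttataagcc
Overlapping matches were counted each, 2 before Ifit3, 3 before Isg15 and 1 before Rsad2. Ifit2, whose ratio in the same split was higher than those of Isg15 and Rsad2 (log2 6.19), had 0 matches in its windows. Of 32851 such windows, 978 (2.98%) held at least 1 match, and of the 16 interferon list genes with a window 8 did. A match to these letters is not a measured binding site.

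Beside Ifit3 itself, the 74 cells differed from the 721 without it in most of the interferon list. Of 2701 genes, 132 (4.89%) were at least 2-fold higher and 34 (1.26%) lower in cells with Ifit3, at median depths of 6295.5 and 6735 UMIs. Of the 22 interferon genes 18 were higher, Ifit3 included, and 0 lower. Isg15, a ubiquitin-like antiviral protein gene, was at 24.3 CPM in cells without Ifit3 and 430 CPM in cells with it, a log2 ratio of 4.15 (3.82 to 4.48). Rsad2, which encodes viperin, was at 4.98 and 275 CPM (5.79, 5.16 to 6.47), and Cxcl10, a chemokine gene for T cells, at 9.35 and 214 CPM (4.52, 4.00 to 5.05). Irf7, which amplifies interferon production, was at 86.4 and 663 CPM. The list genes that stayed under 2-fold were Ifitm3, Ifitm6, Ifi27l2a and Ly6e, each of which was at 757 CPM or more in the cells without Ifit3.

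Outside the interferon list, cells with Ifit3 held more Fcgr1, an Fc receptor gene, at 405 against 65.7 CPM, more Fcgr4 at 120 against 27.7 CPM and more Il18 at 139 against 21.9 CPM. Plac8 was at 6065 against 2586 CPM (log2 ratio 1.23, 1.17 to 1.29) and Ms4a4c at 1612 against 561 CPM. The opposite held for F10, at 63.0 against 185 CPM (-1.56, -2.13 to -1.03), for Klf4, a factor of monocyte differentiation, at 27.3 against 72.6 CPM, and for Fn1, at 575 against 1019 CPM. Ccr2 was nearly level at 1030 against 1067 CPM.

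**Figure D3:**
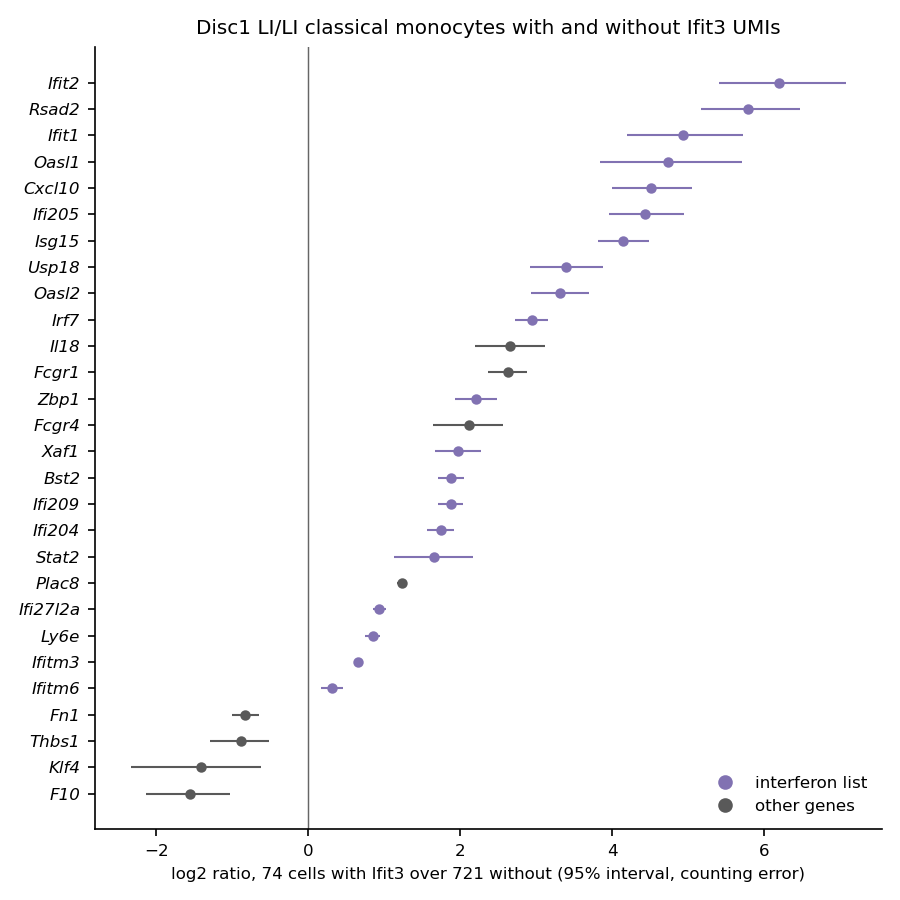
log2 ratio of CPM between the 74 Disc1 LI/LI classical monocytes with Ifit3 UMIs and the 721 without, with 95% counting intervals, for interferon list genes (purple) and further genes (grey). Ifit2, Rsad2 and Ifit1 lie at the top, while Fn1, Thbs1, Klf4 and F10 lie below 0.

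By Ly6c2 level fewer genes differed by 2-fold. Over groups of 263, 263 and 262 Disc1 LI/LI cells, 13 of 2617 genes (0.497%) were at least 2-fold higher in the high than in the low group and 14 (0.535%) lower. Lower in the high group were Il1b, at 275, 114 and 53.9 CPM from low to high, and Cd209a, a lectin gene of monocyte-derived dendritic cells, at 88.9, 47.7 and 37.5 CPM. Lyz1, a lysozyme gene close in sequence to Lyz2, was at 104, 3.75 and 10.6 CPM. Higher in the high group were Isg15, at 33.5, 58.4 and 84.6 CPM, and Irf7, at 83.7, 104 and 216 CPM. In Disc1 WT/WT each group had 7 cells, and the split was not read there.

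Some members held cycling genes below the limit of the rule, a split also chosen after the data were seen. Of the 795 cells, 232 held 1 or 2 of the 7 cycling genes and 563 held 0, at median depths of 7510.5 and 6518 UMIs. Those with 1 or 2 had more Mcm5, a replication licensing gene, at 31.1 against 6.70 CPM, and more Hmgb2, at 1019 against 656 CPM. They also had less Apoe, a lipid carrier gene, at 726 against 1528 CPM, and less Isg15, at 32.8 against 72.1 CPM. The cells beyond the cycling limit that met all other limits of the rule, MHC class II included, called cycling Ly6c2 Ccr2 cells here, numbered 10 in Disc1 WT/WT against 214 in Disc1 LI/LI.

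Between genotypes, the first question was whether the monocytes of Disc1 LI/LI differed from the few of Disc1 WT/WT. Among 3184 genes with at least 50 CPM in 1 library and 20 UMIs in all, 62 (1.95%) were at least 2-fold higher in Disc1 LI/LI and 422 (13.3%) at least 2-fold lower. Among the 8937 genes with at least 20 UMIs these were 415 (4.64%) and 1536 (17.2%). The balance rests in part on the scaling. TMM factors were 1.15 and 0.873, which move the log2 ratios by 0.39. With them, 224 of the 3050 genes that then reached 50 CPM were higher and 129 lower. It also rests on the few Disc1 WT/WT UMIs and on the floor, as 586 of the 8937 genes had 0 UMIs in 1 library. Pecam1 counted as lower with 2 UMIs in Disc1 WT/WT against 19 (-1.57, -3.62 to 1.58). Hbb-bs, at 0 against 75 UMIs, did not count as higher. The median log2 ratio of the 8937 genes was -0.20 as counted. Ratios below are as counted, and ratios smaller than the TMM shift of 0.39 have no settled sign.

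The 10 highest and 10 lowest genes between genotypes were mostly genes of other cell types. Igkc, Jchain and Igha are immunoglobulin genes, and without the cells with other-lineage RNA the Jchain and Igha ratios were lost to the floor. S100a9, S100a8, Retnlg, Ngp and Camp, neutrophil genes, were higher in Disc1 LI/LI, with S100a9 at 9.50 against 364 CPM and S100a8 at 52.3 against 390 CPM. Both are genes of the rule, so their values are a description. Microglia, which should lack them, held 13.9 and 561 CPM of S100a9 and 13.8 and 467 CPM of S100a8, and mature neutrophils were 93 and 3102 of the kept barcodes. The part of neutrophil RNA outside cells in these values was not tested. All 10 lowest genes, Cd8a, Cd226, Cd8b1, Cxcr6, Trac, Trbc1, Gzma, Gimap4, Gimap3 and Cd3g, are T and NK cell genes. Cd8a was at 57.0 and 1.69 CPM and Gzma at 508 and 35.6 CPM, and without the cells with other-lineage RNA the T and NK cell list was at 0 in Disc1 WT/WT.

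Of the 10 highest, Socs3 and Cxcl2 were left. Socs3, which encodes an inhibitor of cytokine signalling through STAT3, held 3 UMIs in 28 Disc1 WT/WT cells (14.3 CPM, 2.94 to 41.7), against 2044 UMIs among the 839 Disc1 LI/LI cells (344 CPM, 330 to 360). The log2 ratio was 4.60 (3.05 to 6.87). Without cells with other-lineage RNA it was 0 UMIs against 352 CPM, at least 4.23 with the floor, and 61.5% of the 795 Disc1 LI/LI cells held a UMI, against 15.2% of microglia of that library, at median depths of 6702 and 3754 UMIs. Socs3 was also higher in Disc1 LI/LI in nonclassical monocytes, at 24.5 and 103 CPM, although the Disc1 WT/WT value rests on 3 UMIs. The direction was the same in cycling Ly6c2 Ccr2 cells, with 0 UMIs in 10 Disc1 WT/WT cells and 101 CPM in 214 Disc1 LI/LI cells. In microglia Socs3 was at 28.2 and 50.9 CPM and in neutrophils at 27.8 and 44.1 CPM. Cxcl2, a chemokine gene for neutrophils, held 0 UMIs in Disc1 WT/WT against 771 in Disc1 LI/LI (130 CPM, 121 to 139), a log2 ratio of at least 3.19. Cxcl2 was also higher in Disc1 LI/LI in microglia, at 0.820 and 29.3 CPM, and in neutrophils, at 2305 and 3683 CPM. The part of neutrophil RNA outside cells in the Cxcl2 values was not tested. In nonclassical monocytes Cxcl2 was at 0 and 121 CPM, and in cycling Ly6c2 Ccr2 cells at 0 and 21.6 CPM.

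When the same rule was applied without the cells with other-lineage RNA, the further high genes that no neutrophil or immunoglobulin list held were Mt1 and Gpr146. Igkc was still at 98.0 CPM in Disc1 LI/LI, near its 85.3 CPM in microglia of that library. Mt1, a metallothionein gene, was at 37.5 CPM in 21 cells and 210 CPM in 795 cells (2.49, 1.36 to 3.94), and at 91.2 and 142 CPM in microglia. The lowest was Fosb, an immediate early gene, with 11 UMIs (68.7 CPM) in 5 of 21 Disc1 WT/WT cells and 7.27 CPM in Disc1 LI/LI (log2 ratio -3.24, -4.23 to -2.13). In cycling Ly6c2 Ccr2 cells it was at 68.4 CPM in Disc1 WT/WT, from 8 UMIs in 3 of 10 cells, against 2.52 CPM. In microglia it was at 7.67 and 8.51 CPM, and nonclassical monocytes held 1 UMI in each library. Sparc, a microglial gene at 4111 and 4978 CPM in microglia, was at 144 and 30.9 CPM.

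**Figure D4:**
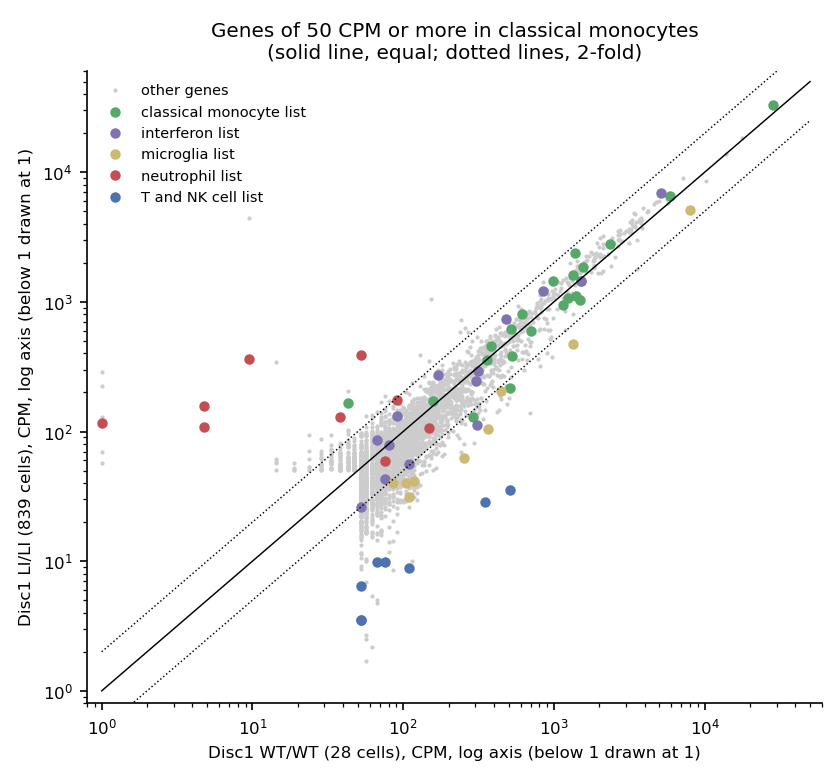
CPM in the 839 Disc1 LI/LI against the 28 Disc1 WT/WT classical monocytes (both axes log, values below 1 drawn at 1), for 3184 genes of 50 CPM or more, with the solid line at equality and dotted lines at 2-fold. T and NK cell genes lie far below the line and neutrophil genes above it, while classical monocyte and interferon genes lie near it.

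Counts over the monocyte lists are to be read against the 4.64% of genes higher and 17.2% lower among the 8937, and shares near these are not a result about a list. Of the 20 classical list genes outside the rule, 1 was at least 2-fold higher in Disc1 LI/LI, F10 at 42.8 and 166 CPM (1.96, 1.03 to 3.09), and 2 were lower, with Thbs1 lowest at 513 and 217 CPM (-1.24, -1.52 to -0.94). Their median log2 ratio was 0.16, and -0.06 without the cells with other-lineage RNA. In list medians a gene with 0 UMIs in 1 library was set at the bound that the floor of 3 counts gives, or at 0 where the other library was below that floor too. Of 22 transcription factors 1 was higher, Cebpd at 257 and 633 CPM (1.30, 0.92 to 1.72), and 4 lower. Of 21 sensing genes 1 was higher, Cd14 at 271 and 585 CPM (1.11, 0.73 to 1.52), and 0 lower. The ratios of F10, Cebpd, Cd14 and Thbs1 without those cells were 1.64, 1.29, 0.94 and -1.59.

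Of 17 immediate early genes, 2 were higher and 2 lower, with a median of 0.05. When the cells with other-lineage RNA were left out, 2 were higher and 3 lower, with a median of -0.20. Both medians are within the TMM shift of 0.39. Over all members Fos was at 3563 CPM in Disc1 WT/WT against 1797 CPM in Disc1 LI/LI (-0.99, -1.09 to -0.88). Its ratio without the cells with other-lineage RNA was -1.11, past 2-fold. Over all members Junb was at 1321 and 1613 CPM and Dusp1 at 817 and 833 CPM. Interferon genes had a median of -0.05, with 0 of 22 higher and 1 lower. Without the cells with other-lineage RNA 0 were higher and 5 lower, with a median of -0.11. Ifitm3, an antiviral membrane protein gene, was at 5150 and 6857 CPM (0.41, 0.33 to 0.50). Its ratio without the cells with other-lineage RNA was 0.19, which is within the TMM shift of 0.39. The 6 Fc receptor genes had a median of 0.34, with Fcer1g, the signalling chain, at 3274 and 3990 CPM (0.29, 0.18 to 0.40). Of 19 cytokine and chemokine genes 2 were higher and 4 lower, with a median of -0.23.

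Of 13 chemokine receptor genes, Ccr2 of the rule included, 0 were higher and 5 lower, Cx3cr1 and Cxcr6 among them, with a median of -0.96. Without the cells with other-lineage RNA 1 was higher and 3 lower, with a median of 0. Cx3cr1 was at 485 and 164 CPM (-1.56, -1.86 to -1.25), and its ratio without those cells was -1.24. In microglia Cx3cr1 was at 3531 and 3122 CPM, and the part of microglial RNA outside cells in its ratio was not tested. Cxcr6, a receptor gene of T cells, was the lowest. Of 15 adhesion genes 0 were higher and 5 lower, with a median of -0.05. Without the cells with other-lineage RNA 1 was higher and 3 lower, with a median of 0.03. Itga4 was past 2-fold lower with and without those cells (-1.10 and -1.18). Of 19 macrophage maturation genes 1 was higher and 7 lower, with a median of -0.10. Without the cells with other-lineage RNA these counts were 1 and 3, with a median of -0.23. Among the 7 were the 3 C1q chains, which are also on the complement list, and Mertk, a receptor gene for the uptake of dying cells, was the lowest with 6 UMIs in Disc1 WT/WT. The background for the counts over all members is again 4.64% higher and 17.2% lower. For the counts without the cells with other-lineage RNA, shares over genes with at least 20 UMIs are not given here. Among 2971 genes with at least 50 CPM in 1 library, 82 were higher and 321 lower without those cells.

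Some complement and microglia genes were lower in Disc1 LI/LI. Of 13 complement genes 0 were higher and 5 lower, against 17.2% lower among all genes, with a median of -0.96. Without the cells with other-lineage RNA 1 was higher and 4 lower and the median was -0.23, which is within the TMM shift of 0.39. C1qa, C1qb and C1qc, the chains of the initiator of the classical pathway, were at 964, 808 and 637 CPM in Disc1 WT/WT and 376, 319 and 296 CPM in Disc1 LI/LI. Without the cells with other-lineage RNA C1qa was at 243 and 102 CPM, against 10531 and 14416 CPM in microglia, a log2 ratio of -1.25. The ratios of C1qb and C1qc without them were -0.75 and -0.89, under 2-fold. Of the 6 microglia list genes that the rule did not use, 0 were higher and 5 lower (median -1.65, and -1.24 without those cells), and the limit on the other 6 bounds them indirectly. Microglia were 4328 of 7032 kept barcodes in Disc1 WT/WT and 1185 of 7817 in Disc1 LI/LI. The part of microglial RNA outside cells in these differences was not tested.

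The study was concerned with actin regulators that DISC1 binds or controls in microglia. In the monocytes the lists of such genes held few past 2-fold, beside 4.64% higher and 17.2% lower among the 8937 genes, and with lists this short the counts are not a result about them. Of 9 genes of the ARP2/3 complex, which branches actin filaments, 0 were higher and 0 lower, with a median log2 ratio of 0.000998, and -0.05 without the cells with other-lineage RNA. Arpc1b was at 1273 and 1526 CPM (0.26, 0.09 to 0.44), and the lowest, Actr2, at 494 and 293 CPM (-0.76, -1.04 to -0.46). Of 10 WAVE and Rac genes, which switch that complex on, 0 were higher and 1 lower, Abi3 at 109 and 44.3 CPM (-1.30, -1.92 to -0.62). Of 6 formin genes, which lengthen straight filaments, 1 was higher and 1 lower: Diaph2 was at 143 and 64.2 CPM (-1.15, -1.69 to -0.56) and Inf2 held 1 UMI in Disc1 WT/WT. With TMM every gene moved by the same shift. NADPH oxidase genes, which make the oxidative burst, had a median of -0.04, with 0 of 7 past 2-fold either way.

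**Figure D5:**
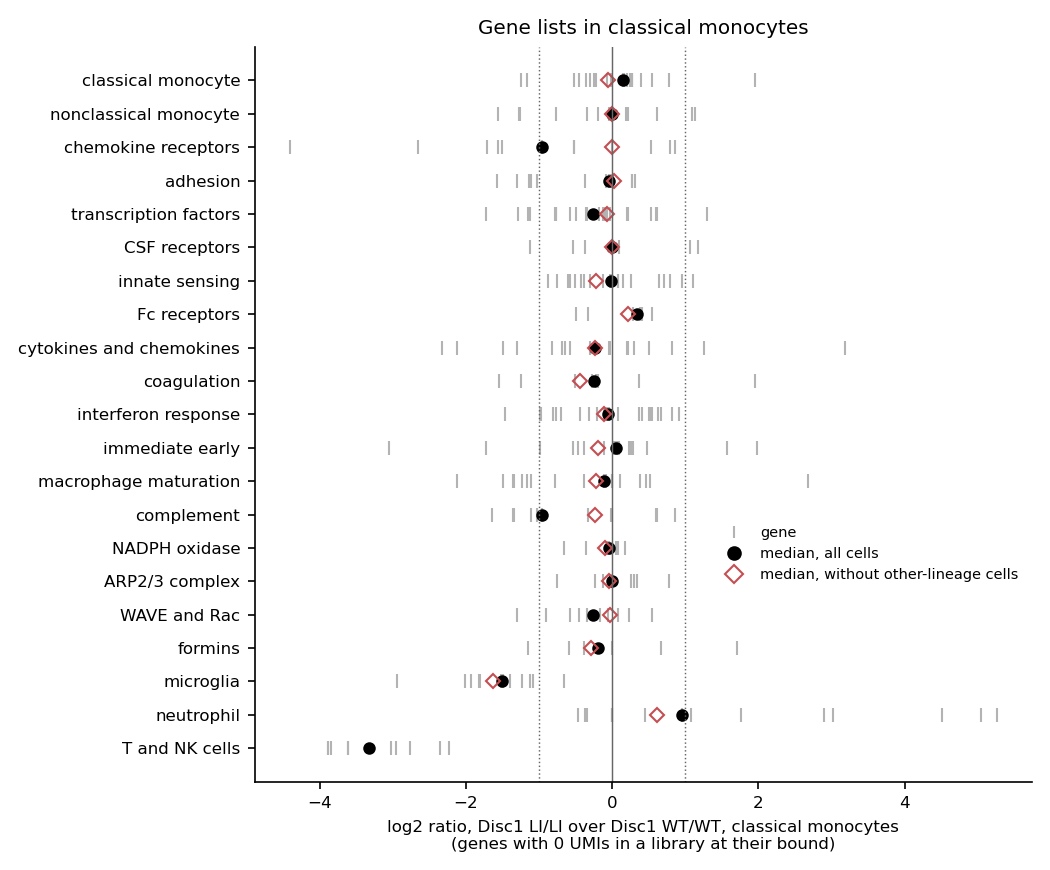
log2 ratio of Disc1 LI/LI over Disc1 WT/WT classical monocytes for the genes of each list (grey ticks, genes with 0 UMIs in a library at their bound), with the median over all cells (black) and without cells with other-lineage RNA (open diamond); dotted lines mark 2-fold. Many monocyte and actin lists centre near 0, the chemokine receptor and complement lists lie below it over all cells (both medians -0.96) and not past the TMM shift without the cells with other-lineage RNA (0 and -0.23), and the T and NK cell list lies lowest (median -3.32); the microglia list, below 0, and the neutrophil list, above 0, include genes of the rule.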

How the data were processed

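The authors aligned reads to mm10 with Cell Ranger 6.1.2 and STAR and deposited UMI counts per gene and barcode (32285 genes), 1 matrix per genotype. Seurat 3.0.1 is also named in the submitters' processing notes. Barcodes with 200 genes or more and at most 10% mitochondrial UMIs were kept. No doublet caller was run, and cells with other-lineage RNA were set aside instead as a choice made after the data were seen. Counts were summed over cells and scaled to CPM in Python 3.11.15 (pandas 2.3.3, numpy 2.4.6, and scipy 1.17.1 for intervals; matplotlib 3.10.9 for plots). A gene counted as different at 2-fold or more, with a floor of 3 counts for a 0. The ratio and its interval were tested on Poisson counts simulated from a single pooled profile. The simulation held no spread between cells, no other-lineage cells and no floor, so it does not cover these.

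The members and gene lists were chosen with earlier results of these data known. The genes named were those of the rule, per list the 3 with the most UMIs and the highest and lowest ratio, and the 10 highest and 10 lowest ratios between genotypes and to nonclassical monocytes. Further genes were chosen after their values were seen. Some genes that the rule names are not reported here. Alternatives were TMM scaling (edgeR 4.0.16 in R 4.3.3), thinning to 1000 UMIs, other totals, means over cells, other gene minimums and other gate limits. Kept barcodes held 33591758 UMIs (Disc1 WT/WT) and 47689834 UMIs (Disc1 LI/LI).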

Additional observations from a re-analysis of the deposited data

How the results depend on the processing

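Of 323 values recomputed under an alternative, 305 moved by less than their error or, for gene counts, by less than 1.5 times. With TMM scaling the counts in Disc1 LI/LI were 224 genes higher and 129 lower, and after thinning to 1000 UMIs 275 and 737, against 62 and 422; thinned sums hold fewer UMIs per gene. With 0.5 UMI added to each count, TMM also moved the ARP2/3 median log2 ratio to 0.39 and turned that of the nuclear RNA list from -0.27 to 0.12. The share of classical monocytes was 0.0582% (Disc1 WT/WT) and 3.02% (Disc1 LI/LI) when the rule was applied after thinning, and 8.76% in Disc1 LI/LI with limits of 4 Ly6c2 and 2 Ccr2 UMIs. Without the cells with other-lineage RNA, an alternative added after the data were seen, 82 genes were higher and 321 lower. No paired analysis was possible because each genotype had 1 library, and no replicate could be left out. The 28 Disc1 WT/WT cells limit every ratio between genotypes.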
